A study of Mus musculus with 5 samples.

Results

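The genes described here are 8 genes that mark the epithelium of the human prostate: KLK2, KLK3, STEAP2, TMPRSS2, FOLH1, MSMB, SLC45A3 and PRUNE2. They were picked by symbol out of 50867 genes in a table of read counts. KLK3 and STEAP2 were chosen for these very counts, which are alike in 3 libraries and 0 in the other 2, so their pattern is a description of the choice and not a finding. Earlier results of these data were also known when the other 6 were put beside them, and no value below is a test.

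The cells were Ba/F3, a mouse line of early B cells that needs interleukin-3 to grow, taken through lentiviral infection. The 5 libraries were labelled S_PXT1, S_PXT1_K118R, WT, WT_K118R and PMSCV, with 1 library in each group. K118R names a lysine to arginine substitution, and PMSCV names a retroviral vector, the reference of the set. S, PXT1 and WT are not spelled out in the labels, which record neither separate cultures nor clones. Although the cells were of mouse, the table lists human gene identifiers, symbols and positions. A count here is therefore the number of reads assigned to a human gene model, and the genome build of the positions is not stated in the sources used here.

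Luminal cells of the prostate secrete proteins into seminal fluid, and many of the genes that set them apart are switched on by androgens. KLK3 encodes prostate-specific antigen and KLK2 a closely related trypsin-like protease, both of the kallikrein family, and KLK2 can activate the KLK3 proenzyme. TMPRSS2 is a serine protease anchored in the membrane and is best known in prostate for its androgen-driven promoter. FOLH1 encodes prostate-specific membrane antigen, a glutamate carboxypeptidase. STEAP2 is a metalloreductase of the cell membrane, SLC45A3 (prostein) a transporter-like protein, MSMB a small secreted protein that is abundant in semen, and PRUNE2 a large protein with a BCH domain whose gene holds the antisense transcript PCA3. Human KLK2 and KLK3 have no direct counterpart in mouse, which has its own expanded set of Klk1-related genes. In the mouse gene names of GENCODE M21, 6 of the 8 symbols have an entry and 2, KLK2 and KLK3, have none.

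Depth was low in all 5 libraries, with totals from 250409 to 351693 counts. S_PXT1 and S_PXT1_K118R held a count for 7393 and 7044 genes, whereas WT, WT_K118R and PMSCV held one for 11712, 11504 and 11492. A count of 0 allows up to 3 counts as a one-sided limit (3.69 as the upper end of the two-sided interval drawn for it), which is 11.7 CPM (counts scaled to library size and composition) in S_PXT1 and 11.8 CPM in S_PXT1_K118R. Intervals below are exact 95% intervals. They and the limit of 3 counts cover counting error only, since several reads may come from 1 molecule. With 1 library per group no difference has a replicate check.

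Of the 8 genes, 7 were counted in each of WT, WT_K118R and PMSCV, and all 8 were at 0 in S_PXT1 and in S_PXT1_K118R. Summed over the 8 genes there were 0 counts in S_PXT1 and 0 in S_PXT1_K118R, 233 in WT, 220 in WT_K118R and 240 in PMSCV. The summed count was at least 73.0-fold lower in S_PXT1 and at least 72.4-fold lower in S_PXT1_K118R than in PMSCV, with the limit of 3 counts set over the whole sum. It was at least 58.3-fold lower in S_PXT1 than in WT, and at least 55.3-fold lower in S_PXT1_K118R than in WT_K118R. These bounds rest in part on KLK3 and STEAP2, which were chosen for being at 0 in both S_PXT1 libraries. KLK3 gave 51 and STEAP2 58 of the 240 counts in PMSCV, and no sum without this pair was taken. Between S_PXT1_K118R and S_PXT1 no fold can be given, since both stood at 0. In bulk RNA, fewer cells of a type and less RNA per cell cannot be told apart.

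**Figure D1:**
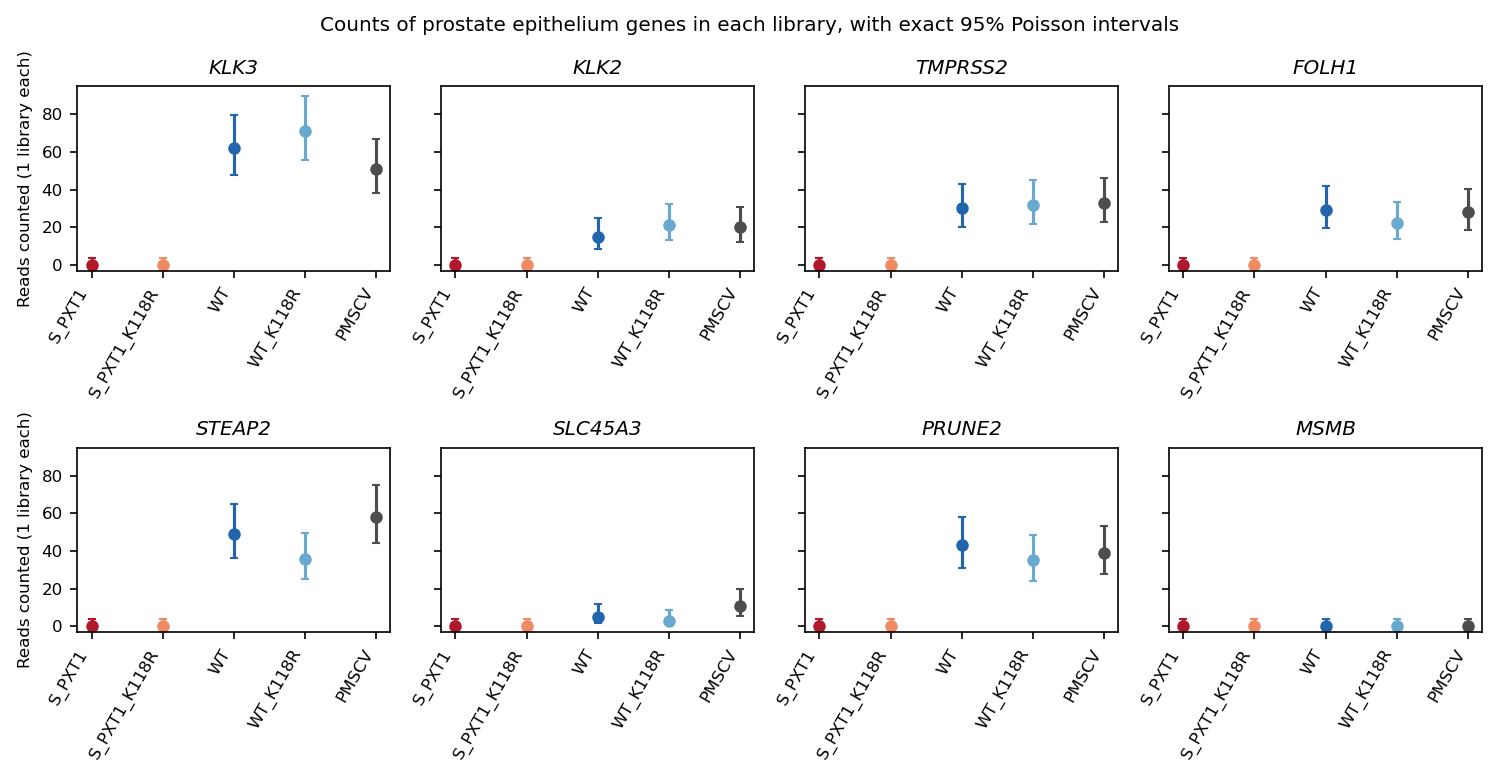
Reads counted on each of the 8 genes (vertical axis) in the 5 libraries (horizontal axis), with points for single libraries and bars for exact 95% Poisson intervals. All 8 panels show 0 in S_PXT1 and S_PXT1_K118R, and only MSMB is at 0 in WT, WT_K118R and PMSCV as well.

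The secreted kallikreins KLK3 and KLK2 are given first. KLK3 (ENSG00000142515, chromosome 19, 50854915 to 50860764, plus strand) had 0 counts in S_PXT1, 0 in S_PXT1_K118R, 62 in WT (interval 47.5 to 79.5), 71 in WT_K118R (55.5 to 89.6) and 51 in PMSCV (38.0 to 67.1). The 3 libraries with counts had overlapping intervals, and scaled for library size they stood at 181, 210 and 181 CPM in WT, WT_K118R and PMSCV. KLK3 was thus level with PMSCV in WT, with an interval of the ratio of 0.68 to 1.48, and 1.16 times its PMSCV level in WT_K118R (0.80 to 1.70). It was at least 15.5-fold lower in S_PXT1 than in PMSCV and at least 17.8-fold lower in S_PXT1_K118R than in WT_K118R.

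KLK2 (ENSG00000167751, chromosome 19, 50861568 to 50880567, plus strand) lies next to it, with 803 bases between the gene models. It had 0 counts in S_PXT1, 0 in S_PXT1_K118R, 15 in WT (8.40 to 24.7), 21 in WT_K118R (13.0 to 32.1) and 20 in PMSCV (12.2 to 30.9). The interval of its ratio was 0.29 to 1.27 in WT over PMSCV, 0.45 to 1.70 in WT_K118R over PMSCV and 0.70 to 2.96 in WT_K118R over WT. All of these hold 1, so that no order between WT, WT_K118R and PMSCV can be read from them. KLK2 was at least 6.08-fold lower in S_PXT1 than in PMSCV, a smaller bound than for KLK3 because fewer reads lay behind it. The coding sequences of KLK2 and KLK3 are alike, and how the authors' counting treated reads that match both is not given, so their division is uncertain. In reads, KLK3 exceeded KLK2 by a ratio of 4.13 in WT (2.32 to 7.82), 3.38 in WT_K118R (2.05 to 5.79) and 2.55 in PMSCV (1.49 to 4.52).

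The membrane enzymes TMPRSS2 and FOLH1, whose catalytic parts face outwards, had levels whose counting intervals overlapped over the 3 libraries. TMPRSS2 (ENSG00000184012, chromosome 21, 41464551 to 41531116, minus strand) had 0 counts in S_PXT1, 0 in S_PXT1_K118R, 30 in WT (20.2 to 42.8), 32 in WT_K118R (21.9 to 45.2) and 33 in PMSCV (22.7 to 46.3). It was 0.75 times its PMSCV level in WT (0.44 to 1.26) and 0.81 times in WT_K118R (0.48 to 1.36). FOLH1 (ENSG00000086205, chromosome 11, 49146635 to 49208670, minus strand) had 0 counts in S_PXT1, 0 in S_PXT1_K118R, 29 in WT (19.4 to 41.6), 22 in WT_K118R (13.8 to 33.3) and 28 in PMSCV (18.6 to 40.5). For both genes the WT, WT_K118R and PMSCV intervals overlapped one another, and none of the 3 reached down to those of the libraries at 0. In S_PXT1, TMPRSS2 was at least 10.03-fold and FOLH1 at least 8.51-fold lower than in PMSCV. FOLH1B, a near copy of FOLH1 at another place on chromosome 11 that may share its reads, had 6 counts in WT, 3 in WT_K118R and 2 in PMSCV, and 0 in S_PXT1 and S_PXT1_K118R.

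Among the other membrane proteins the libraries differed more. STEAP2 (ENSG00000157214, chromosome 7, 90167590 to 90238137, plus strand) had 0 counts in S_PXT1, 0 in S_PXT1_K118R, 49 in WT (36.3 to 64.8), 36 in WT_K118R (25.2 to 49.8) and 58 in PMSCV (44.0 to 75.0). At 107 CPM in WT_K118R against 206 CPM in PMSCV it was 0.52 times as high, with an interval of 0.33 to 0.80 that leaves out 1. STEAP2 in WT lay between them at 143 CPM, 0.69 times its PMSCV level (0.47 to 1.03). It was at least 17.6-fold lower in S_PXT1 than in PMSCV. The antisense model STEAP2-AS1, which overlaps STEAP2 on the other strand, was at 0 in all 5 libraries. STEAP1, a related metalloreductase-like gene that ends 2760 bases before STEAP2, had 15 counts in WT, 8 in WT_K118R and 10 in PMSCV, and 0 in S_PXT1 and S_PXT1_K118R.

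SLC45A3 (ENSG00000158715, chromosome 1, 205657851 to 205680459, minus strand) was the gene with the fewest reads among those counted. It had 0 counts in S_PXT1, 0 in S_PXT1_K118R, 5 in WT (1.62 to 11.7), 3 in WT_K118R (0.62 to 8.77) and 11 in PMSCV (5.49 to 19.7). Its highest and lowest CPM over WT, WT_K118R and PMSCV differed by a factor of 4.40, whereas for the other 6 counted genes that factor ran from 1.16 for KLK3 to 1.93 for STEAP2. SLC45A3 was 0.37 times its PMSCV level in WT (0.10 to 1.17) and 0.23 times in WT_K118R (0.04 to 0.86). With 3 counts in WT_K118R, its absence from S_PXT1_K118R was not detectable as a difference from WT_K118R at this depth.

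PRUNE2 (ENSG00000106772, chromosome 9, 76611376 to 76906087, minus strand) had 0 counts in S_PXT1, 0 in S_PXT1_K118R, 43 in WT (31.1 to 57.9), 35 in WT_K118R (24.4 to 48.7) and 39 in PMSCV (27.7 to 53.3). The 3 libraries with counts again overlapped, at 0.91 times the PMSCV level in WT (0.57 to 1.44) and 0.75 times in WT_K118R (0.46 to 1.21). In S_PXT1 it was at least 11.9-fold lower than in PMSCV. PCA3, the prostate transcript on the opposite strand within PRUNE2, and the models AL359314.1 and AL390239.1 within the span of PCA3 were at 0 in all 5 libraries. The strand setting of the counting is not given, so reads of overlapping genes on opposite strands may not have been kept apart.

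MSMB (ENSG00000263639, chromosome 10, 46033307 to 46046269, minus strand) was at 0 throughout, so that at most 3 counts per library, 8.77 to 11.8 CPM, are allowed for. No fold can be given for it, and it did not pass the filter of a mean of 1 CPM over the 5 libraries that the other 7 passed. MSMB is thus the 1 gene of the 8 for which none of the libraries held a read. Other secretory genes of the prostate varied. TGM4, a transglutaminase of semen, had 0 counts in all 5 libraries, and ACP3, prostatic acid phosphatase, had 1 count, in WT. The secreted protease KLK4 had 9 counts in WT, 3 in WT_K118R and 7 in PMSCV, and SPON2, a secreted matrix protein, had 10, 19 and 15. These 4 genes are picked out here after their values were seen.

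Per length of gene model, the order of the 7 counted genes can be read from the deposited FPKM values (counts divided by the length of the gene model and by library size). KLK3 led in each of the 3 libraries, at 15.1 FPKM in WT, 17.4 in WT_K118R and 16.3 in PMSCV. TMPRSS2 followed at 9.32, 10.1 and 13.5 FPKM and FOLH1 at 10.8, 8.26 and 13.7 FPKM in WT, WT_K118R and PMSCV, and these neighbours in the order overlapped within every library, as TMPRSS2 did with KLK3. STEAP2 had 6.06, 4.50 and 9.46 FPKM in the same libraries. KLK2 stayed between 2.46 and 4.33 FPKM and PRUNE2 between 3.03 and 4.41 FPKM, with overlapping intervals in each library, although PRUNE2 had more reads than KLK2 throughout. SLC45A3 ranged from 2.33 FPKM in WT_K118R to 11.1 FPKM in PMSCV, with an interval in PMSCV of 5.56 to 19.9 FPKM. S_PXT1 and S_PXT1_K118R were listed at 0 FPKM for all 8 genes.

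The makeup of the summed count was compared between the libraries that held it. KLK3 gave 26.6% of the reads on the 8 genes in WT (21.1 to 32.8%), 32.3% in WT_K118R (26.1 to 38.9%) and 21.3% in PMSCV (16.3 to 27.0%). STEAP2 gave 21.0% in WT (16.0 to 26.8%), 16.4% in WT_K118R (11.7 to 21.9%) and 24.2% in PMSCV (18.9 to 30.1%). KLK3 stood highest and STEAP2 lowest in WT_K118R. The 3 intervals overlapped for each of the 7 genes, but overlap of separate intervals does not show that the shares were equal. No interval of the difference between shares was taken. TMPRSS2 held between 12.9% and 14.5%, FOLH1 at most 12.4% and PRUNE2 between 15.9% and 18.5% over the 3 libraries. KLK2 held between 6.44% and 9.55%, and SLC45A3 between 1.36% and 4.58%.

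**Figure D2:**
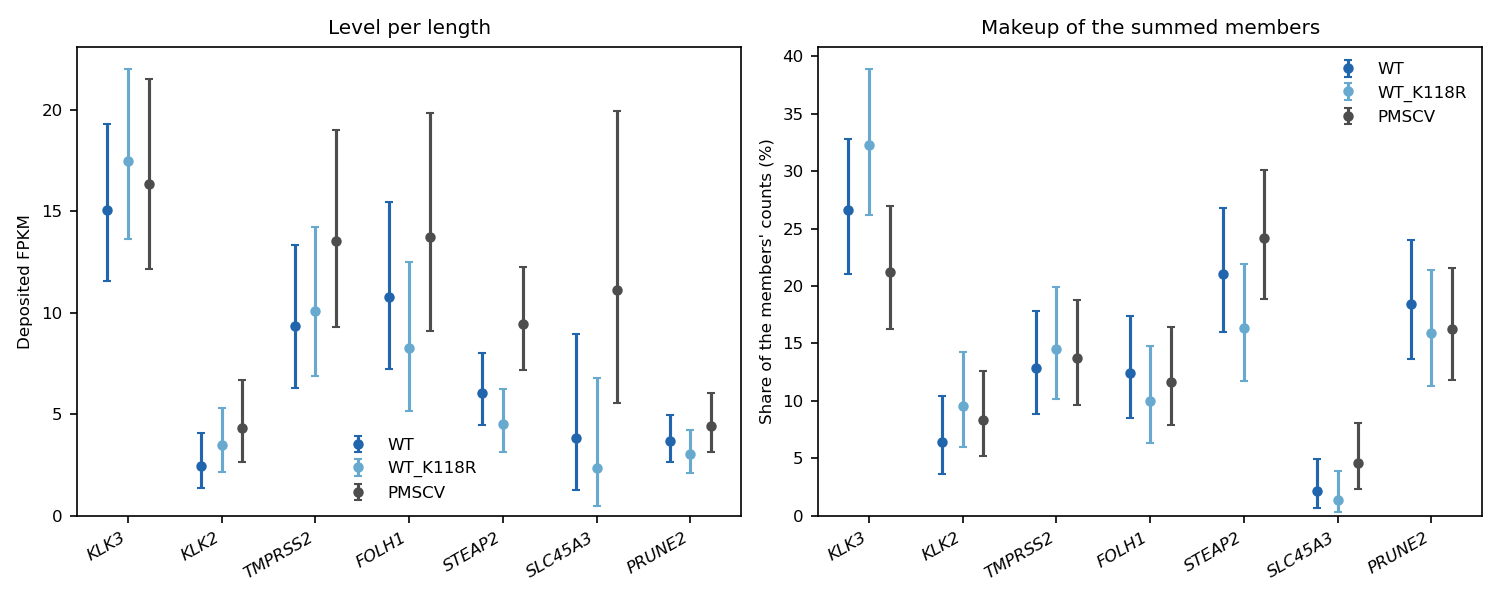
Left, deposited FPKM of the 7 counted genes in WT, WT_K118R and PMSCV, with bars that carry the exact 95% Poisson interval of the count. Right, the share (%) of the reads on the 8 genes that each gene held in the same libraries, with exact 95% binomial intervals. KLK3 led per length in all 3 libraries. The intervals of each gene's share overlapped between them, which does not show that the shares were equal.

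Counts of genes past a 2-fold difference were set beside the share of all 13352 genes that passed the same rule. The rule used log2 CPM with 1 CPM added. This shrinks the difference of low genes with reads in both libraries, but against 0 counts it can exceed the bound set by 3 counts, since 1 CPM is less than 1 read. A single count is 2.92 CPM in WT and 3.93 CPM in S_PXT1_K118R, so 1 read against 0 already passes 2-fold. The filter of a mean of 1 CPM lets in genes with very few reads. The shares over all genes take these in and are not matched to the reads of the 8 genes, here and below. In S_PXT1 over PMSCV, 7 genes of the 8 were lower and 0 higher, where 43.8% of all genes were lower and 8.64% higher. For S_PXT1_K118R over PMSCV there were again 7 lower and 0 higher, against 44.9% and 8.39% of all genes. For S_PXT1 over WT there were 7 lower and 0 higher against 42.5% and 9.02%, and for S_PXT1_K118R over WT_K118R 7 lower and 0 higher against 44.0% and 8.94%. KLK3 and STEAP2 were chosen on these contrasts, and the 7 passed the filter only through WT, WT_K118R and PMSCV, so nothing is read from these counts. SLC45A3 is among the 7 against WT and WT_K118R only by the pseudocount rule, since its 5 and 3 counts there allow a bound of at most 1.25-fold. The median log2 ratio over the 7 genes was -6.89 in S_PXT1 over PMSCV, set by the pseudocount, beside -0.56 over all genes. The comparisons with PMSCV share that library, and those with S_PXT1 share S_PXT1.

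Among the libraries with counts, the genes past 2-fold were counted in the same way. KLK3 and STEAP2 were chosen for similar counts in WT, WT_K118R and PMSCV, so nothing is read from how few genes passed. That pair is in the medians and summed ratios of all 8 genes below as well. In WT over PMSCV only SLC45A3 was lower and 0 were higher, where 23.2% of all genes were lower and 20.3% higher. In WT_K118R over PMSCV SLC45A3 alone was lower and 0 were higher, beside 24.0% of all genes lower and 19.9% higher. The median log2 ratio of the 7 was -0.42 in both comparisons, against -0.03 and -0.05 over all genes. Summed, the 8 genes stood at 0.80 times the PMSCV level in WT (0.66 to 0.96) and at 0.76 times in WT_K118R (0.63 to 0.92), both with intervals under 1. The WT_K118R ratio depended on the genes summed. It was 0.87 without STEAP2 and PRUNE2 and 0.63 without KLK2 and KLK3, with no interval taken for either. In WT_K118R over WT, which asks about the substitution, 0 of the genes passed 2-fold in either direction, where 20.9% of all genes were lower and 19.2% higher. The summed ratio there was 0.96 (0.79 to 1.16), and STEAP2 had 0.74 (0.47 to 1.17) and KLK2 1.42 (0.70 to 2.96), intervals wide enough to hold a change of 1.5-fold. In S_PXT1_K118R over S_PXT1, 0 genes passed because all were at 0, beside 17.6% of all genes lower and 15.2% higher.

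How common such absence was depended on the number of reads. Among 5773 genes with at least 10 counts summed over WT, WT_K118R and PMSCV, 15.3% had 0 counts in both S_PXT1 and S_PXT1_K118R. SLC45A3, with 19 summed counts, belongs to the range of 10 to 19 counts, where 28.9% of genes were absent from both. KLK2, FOLH1 and TMPRSS2, with 56, 79 and 95 summed counts, belong to the range of 50 to 99, where 3.79% were absent. PRUNE2, STEAP2 and KLK3, with 117, 143 and 184, belong to the range of 100 to 199, where 13 of 457 genes, or 2.84%, were absent. KLK3 and STEAP2 were chosen for this absence, so their place among the 13 was fixed by the choice. The other genes were added with earlier results of these data known.

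**Figure D3:**
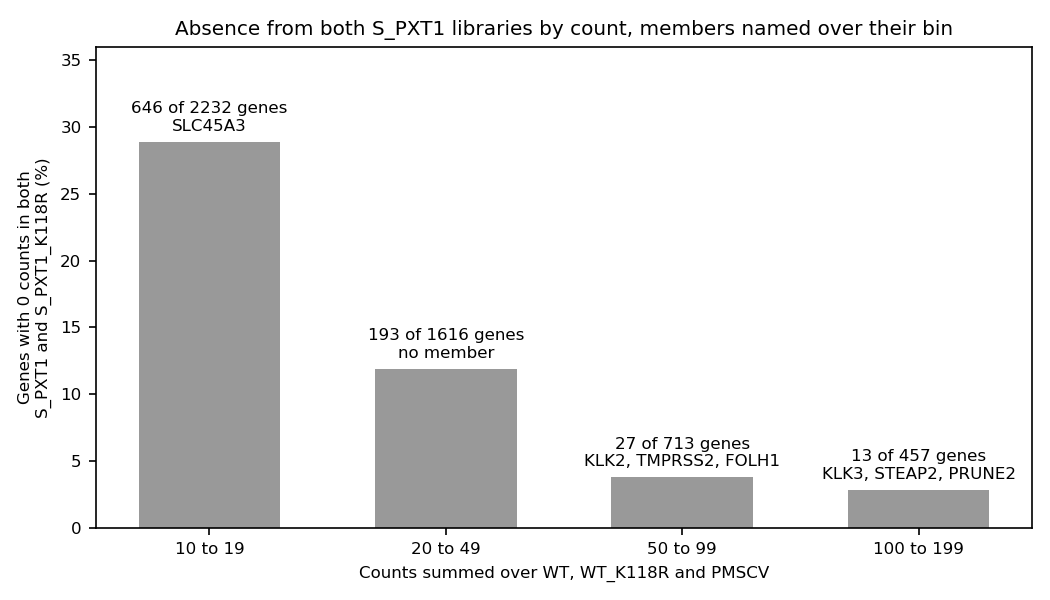
Share of genes with 0 counts in both S_PXT1 and S_PXT1_K118R (vertical axis, %) by their counts summed over WT, WT_K118R and PMSCV (horizontal axis). The share falls to 2.84% in the range of 100 to 199 counts, which holds KLK3, STEAP2 and PRUNE2. KLK3 and STEAP2 were chosen for this absence.

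In all, 44 genes had at least 50 counts over the 3 libraries and 0 in both S_PXT1 libraries, which is 2.29% of the 1925 genes with that many counts. They include keratins (KRT5, KRT13 and KRT4), immunoglobulin genes (IGHG2 and IGLC2) and SLC30A4, a zinc transporter; these are named after their values were seen. Of the 44 genes, 22 had CPM values in WT, WT_K118R and PMSCV within 2-fold of one another. The share of such genes was 26.6% among all 883 genes absent from both with at least 10 counts over the 3 libraries, and 57.6% among all 5773 genes with that many counts. Both shares take in genes with fewer than 50 counts, unlike the 44, so they are not a like comparison. The share within 2-fold among all 1925 genes was not taken. Of the 8 prostate genes, 6 lay within 2-fold in that way, where KLK3 and STEAP2 were chosen for being alike.

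By the distance between the 5-library profiles of scaled counts (Hellinger distance, from 0 for an identical profile to 1), the rows nearest to KLK3 were taken from 1545 rows with a mean of at least 20 counts. The nearest was SENP6, a protease that removes SUMO, at 0.010, with 34 counts in WT, 40 in WT_K118R and 30 in PMSCV. Next came DSP, a desmosomal plaque protein, at 0.039, AP1G2, an adaptor subunit of vesicle traffic, at 0.045, and MAOA, monoamine oxidase A, at 0.061. KRT5 at 0.063 and ABHD2 at 0.064 completed the first 6. All of these were at 0 in both S_PXT1 libraries except ABHD2, which had 1 count in S_PXT1. PRUNE2 came seventh by this measure at 0.066 and STEAP2 twelfth at 0.116, while the other genes fell under the mean of 20 counts. SENP6 and AP1G2 are active in many cell types. KLK3 was chosen for this profile, so the nearest rows repeat the pattern of the choice. Those at or near 0 in S_PXT1 and S_PXT1_K118R reached the mean of 20 counts only through WT, WT_K118R and PMSCV. No counting error was set on the distances, and the source of these reads was not tested.

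A wider list of 34 other prostate luminal and androgen-response genes, chosen with earlier results of these data known, was also counted mostly in WT, WT_K118R and PMSCV. Its summed count was 24 in S_PXT1, 28 in S_PXT1_K118R, 329 in WT, 352 in WT_K118R and 309 in PMSCV. Of 25 genes that passed the filter, many of them only through their reads in WT, WT_K118R and PMSCV, 20 were lower by 2-fold and 0 higher in S_PXT1 over PMSCV, with a median log2 ratio of -3.47. Over all genes 43.8% were lower and 8.64% higher there, with a median of -0.56. In S_PXT1_K118R over PMSCV 22 were lower and 0 higher, with a median of -3.93, beside 44.9% and 8.39% of all genes and a median of -0.61. As for the 8 genes, nothing is read from these numbers of genes. Summed, the list stood at 0.09 times its PMSCV level in S_PXT1 (0.05 to 0.13), so that it did not vanish as the 8 genes did. FASN, the fatty acid synthase of many tissues, kept the most reads, with 6 counts in S_PXT1, 14 in S_PXT1_K118R, 32 in WT, 45 in WT_K118R and 38 in PMSCV. RDH11, a retinol dehydrogenase, had 3 counts in S_PXT1, 0 in S_PXT1_K118R, 37 in WT, 32 in WT_K118R and 35 in PMSCV. ACSL3, an acyl-CoA synthetase, had 0 in S_PXT1 and S_PXT1_K118R, 30 in WT, 20 in WT_K118R and 38 in PMSCV. NDRG1, a stress-responsive gene, departed from the rest, with 0 in S_PXT1, 4 in S_PXT1_K118R, 23 in WT, 84 in WT_K118R and 16 in PMSCV.

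Transcription factors of the prostate lineage on that list, named after their values were seen, were counted in the same 3 libraries. HOXB13, a homeobox factor of the prostate, had 1 count in S_PXT1, 0 in S_PXT1_K118R, 11 in WT, 9 in WT_K118R and 9 in PMSCV, and FOXA1, a pioneer factor of glandular epithelia, had 0, 0, 10, 8 and 10 in that order. For neither factor did the count in WT, WT_K118R and PMSCV differ by more than 2 reads. In WT over PMSCV the 34-gene list summed to 0.88 times (0.75 to 1.03) and in WT_K118R over PMSCV to 0.95 times (0.81 to 1.11). On the list 6 genes were at 0 in all 5 libraries, namely KLK15, TGM4, PCA3, NPY, NEFH and TSPAN1.

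Relatives of the 8 genes held few reads. Tissue kallikreins other than KLK2, KLK3 and KLK4, that is the 12 genes KLK1 and KLK5 to KLK15, summed to 0 counts in S_PXT1 and S_PXT1_K118R, 20 in WT, 1 in WT_K118R and 17 in PMSCV. In WT_K118R, where KLK2 and KLK3 had 21 and 71 counts, KLK10 was the 1 gene of these 12 with a read. KLK10 had 5 counts in WT, 1 in WT_K118R and 7 in PMSCV, and KLK11 had 4, 0 and 6. The 4 other STEAP genes summed to 0 in S_PXT1 and S_PXT1_K118R, 17 in WT, 11 in WT_K118R and 14 in PMSCV, most of it STEAP1. The 6 other membrane serine proteases, HPN and ST14 among them, summed to 0, 0, 10, 4 and 5, and the 4 relatives of PRUNE2 and FOLH1 to 1, 0, 6, 5 and 5, in the order S_PXT1, S_PXT1_K118R, WT, WT_K118R and PMSCV.

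Markers of other epithelia, smooth muscle and plasma cells also stood at or near 0 in both S_PXT1 libraries, with differing levels in WT, WT_K118R and PMSCV. The simple and glandular epithelium list (8 genes) summed to 1 count in S_PXT1, 0 in S_PXT1_K118R, 65 in WT, 59 in WT_K118R and 81 in PMSCV, with AGR2 at 0 throughout. CDH1, the epithelial cadherin, had 0, 0, 15, 12 and 21 counts and KRT19 had 0, 0, 14, 15 and 16 in the order S_PXT1, S_PXT1_K118R, WT, WT_K118R and PMSCV. Of the cell type lists, this one had the smallest range over WT, WT_K118R and PMSCV, at 190, 175 and 288 CPM. The squamous list (11 genes) summed to 0 counts in S_PXT1, 1 in S_PXT1_K118R, 1053 in WT, 536 in WT_K118R and 323 in PMSCV, where KRT13 and KRT4 made up much of WT and KRT6A and KRT5 much of WT_K118R. It stood at 2.68 times its PMSCV level in WT (2.36 to 3.05), where the prostate genes stood at 0.80 times.

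The smooth muscle list (10 genes) summed to 1, 6, 365, 22 and 83 counts in S_PXT1, S_PXT1_K118R, WT, WT_K118R and PMSCV, 3.62 times its PMSCV level in WT (2.84 to 4.65) and 0.22 times in WT_K118R (0.13 to 0.36). MYH11, smooth muscle myosin, gave 215 of the counts in WT, 1 in WT_K118R and 54 in PMSCV. The plasma cell list (6 genes) summed to 2, 2, 458, 22 and 657 counts in the same order. In WT_K118R, then, the smooth muscle and plasma cell sums were lower than in WT and PMSCV. The summed prostate genes stood at 652 CPM there, against 681 CPM in WT and 853 CPM in PMSCV. The part of these cell types in the counts of the prostate genes was not tested.

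The labelled cell type was checked in the same way. Of 15 markers of early B cells and interleukin-3 dependent blood cells, 6 were at 0 in all 5 libraries, among them CD79A, CD79B, VPREB1 and IL3RA. The list summed to 140 counts in S_PXT1, 128 in S_PXT1_K118R, 186 in WT, 8 in WT_K118R and 126 in PMSCV, of which SPI1, a transcription factor of blood cells, gave 139, 128, 173, 1 and 113. Apart from SPI1, no marker of the list had more than 6 counts in any library. How far mouse transcripts are counted on human gene models was not tested, nor was the source of the reads on the prostate genes.

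**Figure D4:**
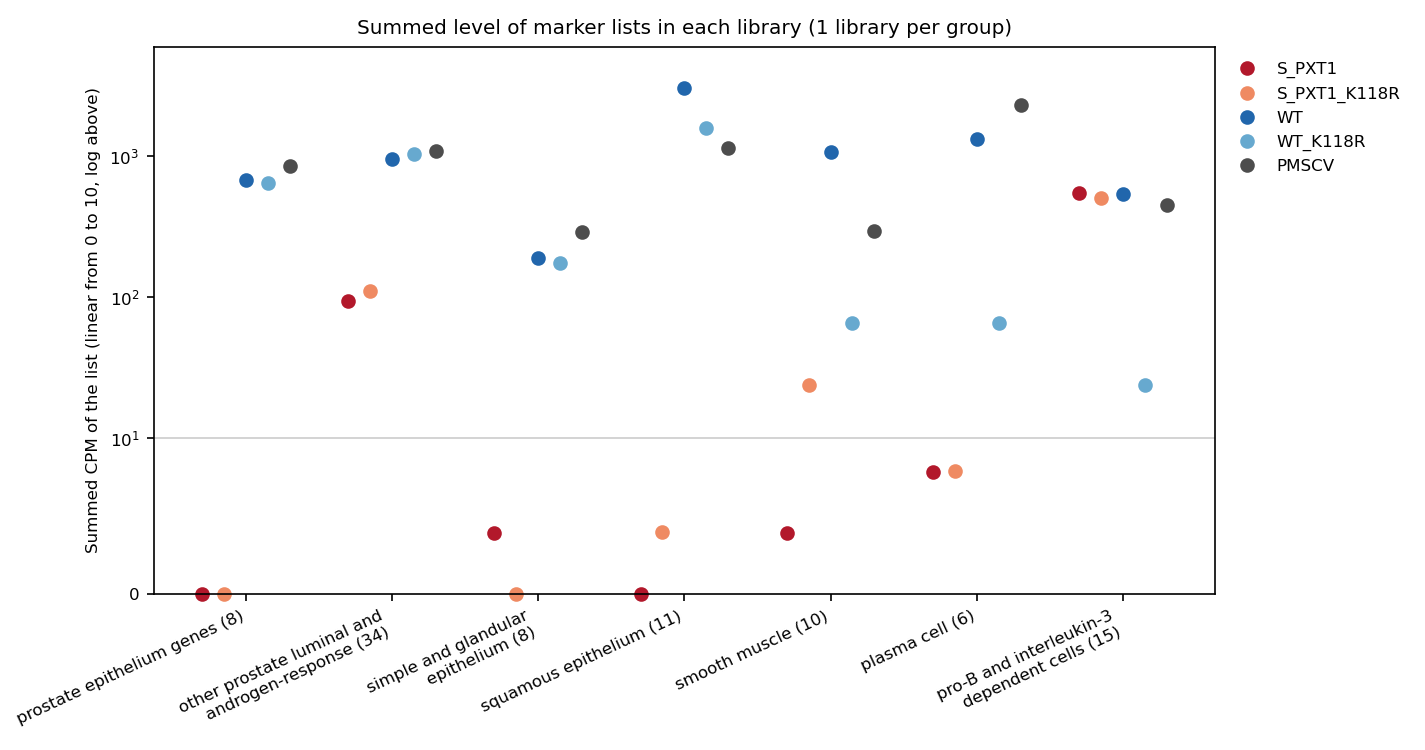
Summed CPM of the 8 prostate genes and 6 further gene lists (vertical axis, linear from 0 to 10 and logarithmic above) in each of the 5 libraries, 1 point per library. The prostate genes stand at 681, 652 and 853 CPM in WT, WT_K118R and PMSCV and at 0 in S_PXT1 and S_PXT1_K118R. KLK3 and STEAP2 among them were chosen for this pattern. The 34 other prostate luminal and androgen-response genes stand at 962, 1043 and 1099 CPM in WT, WT_K118R and PMSCV. The simple and glandular epithelium list stands at 190, 175 and 288 CPM there, and the smooth muscle and plasma cell points lie far apart.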

How the data were processed

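RNA sequencing of 5 Ba/F3 libraries, 1 per group, was used. Per the file headers, the table that the authors deposited holds counts of reads per gene model and FPKM values. In their processing notes the submitters list HISAT2 2.2.1, cutadapt 1.9 and FastQC without saying what each did. Counter, strand setting, build and annotation are not stated. Value columns without a library numbered 0. At least 99.98% of the deposited FPKM values compared were the count times 1 factor per gene and library, within 0.01 on the log2 scale.

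Library sizes were adjusted with TMM (edgeR 4.0.16, R 4.3.3), with DESeq2 1.42.0 size factors, total counts and FPKM as alternatives. Genes entered at a mean of 1 CPM. Ratios of 2 counts carry exact 95% intervals (SciPy 1.17.1), and a count of 0 was set at 3 counts for a bound. The fold rule was tested on simulated counts. Members and lists were chosen with earlier results of these data known. Named are the 8 genes, overlapping models, at most 4 genes per list in order of their counts, and the 6 rows nearest to KLK3; others are marked as chosen after their values were seen. No promoter or protein sequence of these human genes was used here. Single values of some listed genes are not reported here.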

Additional observations from a re-analysis of the deposited data

How the results depend on the processing

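Of 103 alternative values, 89 lay within the counting interval or within 1.5 times the count. Many of these could hardly come out otherwise, so the 89 are no measure of stability. The number of genes past the threshold stayed at 7 in each comparison of S_PXT1 or S_PXT1_K118R with PMSCV, WT or WT_K118R. In S_PXT1_K118R over S_PXT1, where all genes were at 0, it stayed at 0. No ratio whose interval leaves out 1 changed direction, but the summed ratio in WT_K118R over WT, 0.96 with an interval around 1, was 1.07 without STEAP2 and PRUNE2. With 1 library per group, depth limits every value, and the S_PXT1 and S_PXT1_K118R bounds fall as fewer reads enter the sum. Without KLK2 and KLK3 the summed ratio was at most 0.0195 in S_PXT1 over PMSCV, 0.0196 in S_PXT1_K118R over PMSCV, 0.0256 in S_PXT1 over WT and 0.0311 in S_PXT1_K118R over WT_K118R. Without STEAP2 and PRUNE2, which overlap other models, it was at most 0.0230, 0.0232, 0.0284 and 0.0267 in the same comparisons. In WT_K118R over PMSCV the summed ratio was 0.63 without KLK2 and KLK3 and 0.87 without STEAP2 and PRUNE2. The number of genes past the threshold in WT over PMSCV was 2 at 1.5-fold and 0 at 3-fold. In WT_K118R over PMSCV it was 3 at 1.5-fold and 2 with total count scaling, and in WT_K118R over WT it was 1 at 1.5-fold. No summed ratio could be given for S_PXT1_K118R over S_PXT1, nor FPKM ratios against libraries listed at 0. No paired analysis was possible because each group holds 1 library.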
